A study of Mus musculus with 16 samples.

Results

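Levels of 10 genes of the p53 and Gadd45 stress pathways were followed in quadriceps muscle of mice that lack the phosphatase myotubularin, the model of X-linked myotubular myopathy. They are the 10 of 41388 rows of the count table whose symbol is Cdkn1a, Cdkn1b, Trp53, Mdm2, Gadd45a, Gadd45b, Gadd45g, Ccng1, Ccnd1 or Bax, and each symbol names 1 row. They have known roles in cell cycle arrest and stress, and were taken up with earlier results of these data known.

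p53, the product of Trp53, is a transcription factor that is held low by the ubiquitin ligase Mdm2 and that accumulates when DNA is damaged or cells are stressed. It then switches on genes that stop the cell cycle, above all Cdkn1a, which encodes the kinase inhibitor p21, and genes that promote repair or cell death. The Gadd45 genes encode small stress proteins that bind Map3k4, p21 and the chromatin machinery, and skeletal muscle is known to raise Gadd45a and Cdkn1a when it is denervated or wasting.

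RNA of 16 mice was sequenced, 4 in each of 4 groups, all on the C57BL/6 background and 36 days old. WT were wild-type mice on standard chow. KO were Mtm1 -/- mice, in which homologous recombination had removed exon 4 of Mtm1, also on standard chow. WT_TAM and KO_TAM were mice of the same genotypes given tamoxifen at 40 mg/kg in the chow from day 21, so the control of KO_TAM for genotype is WT_TAM and its control for the drug is KO. Nothing in the labels marks libraries as repeats of 1 mouse. The paper describes the samples as coming from littermates, but litters are not given and no test took them into account. The p-values set the difference between groups against the spread between libraries. In whole muscle, fewer cells of a type and less RNA per cell cannot be told apart.

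The 16 libraries held 25116179 to 29847222 counts on genes. The main set is the 14 libraries that the study analysed, with 3 WT, 4 WT_TAM, 3 KO and 4 KO_TAM, and leaves out WT_1 and KO_12. The library labelled WT_1 held 3.69 CPM of Mtm1 (counts scaled to a common library size, with TMM factors), where the other WT and WT_TAM libraries held 12.2 to 18.6 and the KO and KO_TAM libraries 1.77 to 3.08, so it went against its label. Its Cdkn1a level, 52.5 CPM, was within the WT_TAM range and far below the KO libraries. In the main set Mtm1 fell in KO against WT, with a log2 fold change of -2.56 ± 0.17 (SE) and an adjusted p of 2.14e-04 (edgeR's quasi-likelihood test, Benjamini-Hochberg over all genes tested). Muscle fiber RNA was dominant throughout, with Acta1, the actin of skeletal muscle, at 22000 to 51300 CPM. TMM factors, which correct library totals for RNA composition, were 0.846 to 0.964 in WT and WT_TAM and 1.03 to 1.18 in KO and KO_TAM, so scaling by library totals alone shifts the all-gene median of the log2 fold changes from 0.02 to 0.33 in KO against WT.

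The 250 bases before the start sites of these genes were searched for short sites. Sites further upstream or past the start site were not sought. p53 binds a pair of 10-base half-sites, and an exact match to the half-site was sought on both strands in the 250 bases upstream of each RefSeq start (build GRCm38.p6, read along the gene's strand). Promoters were found for 9 of the 10 genes, Cdkn1a with 2 start sites. The 5 shown were chosen as textbook targets of p53 whose values went in different directions in this muscle, and capitals mark the half-sites.
Cdkn1a, upstream start, chr17:29090729-29090978, plus strand: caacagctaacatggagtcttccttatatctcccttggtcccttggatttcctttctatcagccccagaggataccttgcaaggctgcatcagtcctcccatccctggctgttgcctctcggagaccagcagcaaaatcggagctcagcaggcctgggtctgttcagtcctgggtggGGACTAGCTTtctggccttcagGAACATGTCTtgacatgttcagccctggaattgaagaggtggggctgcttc
Gadd45a, chr6:67037408-67037657, minus strand: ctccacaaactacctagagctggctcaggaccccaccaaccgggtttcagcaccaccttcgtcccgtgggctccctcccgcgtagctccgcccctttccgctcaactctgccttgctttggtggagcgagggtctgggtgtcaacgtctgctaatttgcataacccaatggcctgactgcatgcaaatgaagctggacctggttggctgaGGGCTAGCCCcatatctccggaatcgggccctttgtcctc
Bax, chr7:45466899-45467148, minus strand: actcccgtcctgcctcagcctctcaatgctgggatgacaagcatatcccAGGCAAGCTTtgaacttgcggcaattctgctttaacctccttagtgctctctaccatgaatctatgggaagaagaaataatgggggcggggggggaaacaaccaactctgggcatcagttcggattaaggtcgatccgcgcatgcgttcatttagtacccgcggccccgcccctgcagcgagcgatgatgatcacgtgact
Mdm2, chr10:117710759-117711008, minus strand: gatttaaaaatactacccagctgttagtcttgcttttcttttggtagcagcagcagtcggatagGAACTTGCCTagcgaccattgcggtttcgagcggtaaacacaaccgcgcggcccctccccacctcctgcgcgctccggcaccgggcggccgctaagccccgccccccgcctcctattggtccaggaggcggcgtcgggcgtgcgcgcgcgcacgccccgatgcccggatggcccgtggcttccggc
Ccng1, chr11:40755287-40755536, minus strand: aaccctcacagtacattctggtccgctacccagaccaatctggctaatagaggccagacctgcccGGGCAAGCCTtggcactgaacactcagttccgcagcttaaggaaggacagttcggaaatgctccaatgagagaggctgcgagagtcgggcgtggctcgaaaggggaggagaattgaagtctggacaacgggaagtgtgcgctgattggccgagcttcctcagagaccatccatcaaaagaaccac
The upstream start of Cdkn1a held 2 half-sites, at -73 and at -51 from the start, close enough to count as a full site with a gap of at most 13 bases. The stretch directly after the half-site at -51 misses the pattern by 1 base, so the exact search left it unmarked. Which of these stretches pair as a p53 site was not tested. Of all 32851 mouse promoters of this length, 0.0639% held such a pair and 7.13% held at least 1 half-site. Gadd45a held 1 half-site at -40, Bax 1 at -201, Mdm2 1 at -186, Ccng1 1 at -185 and Trp53 1 at -75. The downstream start of Cdkn1a and the windows of Cdkn1b, Gadd45b and Gadd45g held none. The E-box CANNTG, the core site of myogenic factors such as myogenin, lay in 66.2% of all promoters, and the windows of Gadd45a, Gadd45b, Gadd45g, Mdm2, Bax and the downstream start of Cdkn1a held it. The AP-1 site TGANTCA (6.75% of promoters) was in none of these windows, and the FoxO site GTAAACA (3.17%) was in that of Mdm2. A match is a run of letters and not a measured binding site.

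In KO against WT, Cdkn1a rose and was the 1 gene of the 10 past an adjusted p of 0.01, where 3.60% of the 14740 genes tested were called. At the looser threshold of 0.05, 6 of the 10 passed, namely Cdkn1a, Gadd45a and Bax with higher levels and Cdkn1b, Gadd45b and Ccng1 with lower levels, where 12.8% of all genes passed. In KO_TAM against WT_TAM, 4 of the 10 passed 0.01, namely Cdkn1a, Gadd45a and Bax, which rose, and Gadd45g, which fell, against 6.72% of 14563 genes. Ccng1 was the 1 further gene past 0.05 there, against 17.0% of all genes. Over the 10 genes the median log2 fold change was 0.15 in KO against WT and 0.45 in KO_TAM against WT_TAM, and over all genes tested 0.02 and -0.01. KO_TAM against KO called none of the 10 and 0% of all genes, and WT_TAM against WT called none of the 10 and 0.131% of all genes (edgeR's quasi-likelihood test). Gadd45b in the first and Cdkn1a in the second had an unadjusted p under 0.05, beside 7.55% and 10.7% of all genes. DESeq2 and the exact test each called that 1 gene, beside 0.478% of all genes in the first comparison with either tool and 1.47% and 1.22% in the second. The test of whether the drug acted differently in the 2 genotypes called none of the 10 either, with 3 of them at an unadjusted p under 0.05, beside 4.27% of all genes. In levels, 7 of the 10 genes did not overlap between KO and WT, 4 of them higher and 3 lower, where 33.0% of 17446 genes with at least 15 counts did not overlap. Between KO_TAM and WT_TAM 6 did not overlap, 4 higher and 2 lower, where 19.6% of 17779 genes did not. Other tools called more of them in KO against WT, 5 with DESeq2 and 6 with edgeR's exact test, but these tools also called 11.4% and 9.85% of all genes there.

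**Figure D1:**
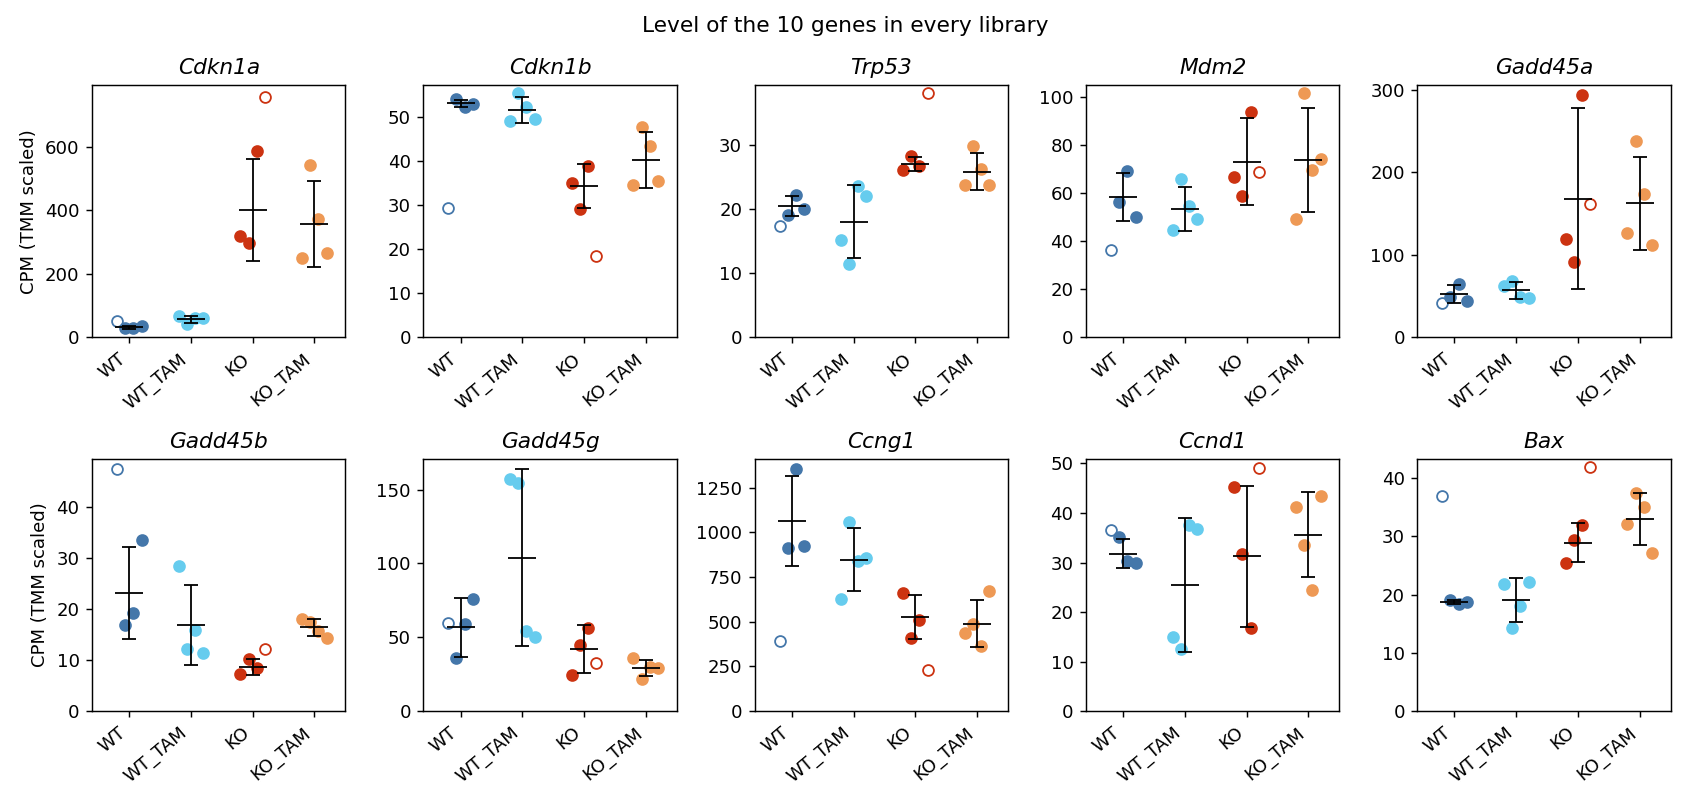
Levels of the 10 genes in CPM (TMM scaled, linear axes from 0), 1 point per library, by group. Bars are the mean and SD of the main set, and open circles are WT_1 and KO_12, which are not in it. Cdkn1a lay between 249 and 586 CPM in the KO and KO_TAM libraries of the main set and between 29.3 and 65.9 in WT and WT_TAM.

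Cdkn1a, whose product p21 blocks the cyclin-dependent kinases, had the largest fold change of the 10 in both genotype comparisons. It stood at 29.4, 29.3 and 36.7 CPM in WT_2, WT_3 and WT_4, and at 320, 296 and 586 CPM in KO_9, KO_10 and KO_11. With tamoxifen it stood at 65.9, 42.2, 60.0 and 60.3 CPM in WT_TAM_5 to WT_TAM_8, and at 249, 542, 373 and 264 CPM in KO_TAM_13 to KO_TAM_16. Every library of a mutant group was above every library of its wild-type control. The mean was 401 ± 161 CPM (SD, n = 3) in KO and 31.8 ± 4.21 (SD, n = 3) in WT, a ratio of 12.6. The log2 fold change was 3.66 ± 0.28 (SE), with a quasi-likelihood (edgeR) adjusted p of 2.74e-04. In KO_TAM against WT_TAM the means were 357 ± 135 (SD, n = 4) and 57.1 ± 10.3 CPM (SD, n = 4), with a log2 fold change of 2.63 ± 0.25 (SE) and an adjusted p of 1.62e-04 (edgeR). KO_12, outside the main set, had the highest level of all libraries, 758 CPM, and with all 16 libraries the log2 fold change in KO against WT was 3.72, with an adjusted p of 7.68e-04 (edgeR). The spread within the mutant groups was wide, and KO_11 and KO_TAM_14 were the 2 highest of the main set.

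Between the wild-type groups the Cdkn1a levels did not overlap, but the difference missed the threshold. All 4 WT_TAM libraries were above the 3 WT libraries, beside 10.7% of 17220 genes whose groups did not overlap, and no other of the 10 genes separated these groups. The ratio of means was 1.80 and the log2 fold change 0.84 ± 0.17 (SE), with a quasi-likelihood (edgeR) adjusted p of 0.0744, which called 0.131% of all genes. The gene passed 0.01 in DESeq2 (adjusted p = 7.33e-04) and in edgeR's exact test (0.00375), and over all alternatives its adjusted p ran from 7.33e-04 to 0.503. The highest was that of all 16 libraries, since WT_1 held 52.5 CPM. The fold change of KO_TAM against WT_TAM was smaller than that of KO against WT by -1.01 ± 0.39 (SE) on the log2 scale, and this difference had a p of 0.0204 and an adjusted p of 1 (edgeR). None of 13 clock genes and none of 10 fasting and glucocorticoid genes passed 0.01 or 0.05 in WT_TAM against WT (edgeR). Few genes of any kind were called there, and both lists leaned upward. The median log2 fold change was 0.49 for the clock genes, with 9 of 13 positive. For the fasting and glucocorticoid genes it was 0.86, with 8 of 10 positive, beside -0.004 over all genes. The summed level of the clock genes was 814 to 1310 CPM in WT_TAM and 586 to 821 in WT, that of the fasting genes 1450 to 2440 and 1370 to 2030, and both ranges overlapped. The part of these genes in the Cdkn1a levels was not tested.

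Cdkn1b encodes p27, the sister inhibitor of p21. Its level was 52.3 to 53.9 CPM in the 3 WT libraries and 29.0 to 38.9 in the 3 KO libraries, with no overlap. The log2 fold change was -0.63 ± 0.13 (SE), with an adjusted p of 0.0187 (edgeR's quasi-likelihood test). With tamoxifen the levels were 49.1 to 55.4 CPM in WT_TAM and 34.6 to 47.7 in KO_TAM, again with no overlap, and the log2 fold change was -0.37 ± 0.12 (SE), with an adjusted p of 0.0591 (edgeR). Neither passed 0.01, and the size turned on the scaling. With library totals alone the values were -0.32 (edgeR adjusted p = 0.1) and -0.09 (edgeR adjusted p = 0.694), and in RPKM the KO_TAM libraries (7.84 to 11.83) overlapped the WT_TAM libraries (9.66 to 11.2). The library labelled WT_1 held 29.4 CPM, within the KO range, and with all 16 libraries the adjusted p was 0.19 (edgeR).

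The p53 gene and its ligase did not pass 0.01 in either genotype comparison. Trp53 was measured at 19.1 to 22.2 CPM in WT, 26.1 to 28.2 in KO, 11.4 to 23.5 in WT_TAM and 23.6 to 29.7 in KO_TAM. The mutant libraries were above their controls without overlap in both pairs, and the log2 fold changes were 0.41 ± 0.12 (SE, adjusted p = 0.0541, edgeR) and 0.50 ± 0.21 (SE, adjusted p = 0.126). The lowest 2 libraries were WT_TAM_5 and WT_TAM_6, and without both the fold change against WT_TAM was 0.15, with an adjusted p of 0.534. With library totals alone the Trp53 value in KO against WT was 0.72 and passed (edgeR adjusted p = 0.00453), as it did with limma on log2(RPKM + 1), at 0.62 (adjusted p = 0.00853), and its RPKM was 4.63 ± 0.08 (SD, n = 3) in WT and 7.64 ± 0.50 (SD, n = 3) in KO.

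Mdm2, itself a target of p53, stood at 49.9 to 69.3 CPM in WT and 58.9 to 93.5 in KO, and at 44.4 to 65.7 in WT_TAM and 49.1 to 102 in KO_TAM. In CPM its groups overlapped in both pairs, with log2 fold changes of 0.33 ± 0.19 (SE, adjusted p = 0.285, edgeR) and 0.44 ± 0.20 (SE, adjusted p = 0.147). With library totals alone they were 0.64 (edgeR adjusted p = 0.0265) and 0.73 (edgeR adjusted p = 0.024). In RPKM the WT libraries (9.38 to 11.56) lay below the KO libraries (13.69 to 20.46). The WT_TAM (7.84 to 11.93) and KO_TAM (9.98 to 22.62) libraries overlapped there too. KO_11 and KO_TAM_14 were the highest libraries for Mdm2, as for Cdkn1a.

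The 3 Gadd45 genes did not move together. Gadd45a stood at 49.5, 64.4 and 44.0 CPM in WT_2 to WT_4, and at 120, 91.6 and 294 CPM in KO_9 to KO_11. Its levels were 62.3, 68.8, 49.0 and 47.5 CPM in WT_TAM_5 to WT_TAM_8, and 127, 238, 174 and 112 CPM in KO_TAM_13 to KO_TAM_16. The mutant libraries were above all wild-type libraries, and the highest were again KO_11 and KO_TAM_14. Gadd45a rose in KO_TAM against WT_TAM, by 1.499 ± 0.23 (SE) on the log2 scale with an adjusted p of 0.0016 (edgeR's quasi-likelihood test). In KO against WT the log2 fold change was 1.68 ± 0.39 (SE) and the adjusted p 0.0242, and without KO_11 it was 1.01. The fold changes with and without the drug differed by -0.16 ± 0.47 (SE) on the log2 scale, with a p of 0.735.

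Gadd45b, the relative that is best known as a target of inflammatory and growth signals, had its lowest levels in untreated mutants. It stood at 16.9, 19.2 and 33.5 CPM in WT_2 to WT_4, and at 7.28, 10.2 and 8.51 CPM in KO_9 to KO_11. In KO_TAM_13 to KO_TAM_16 it stood at 18.1, 17.4, 15.7 and 14.4 CPM, and in WT_TAM_5 to WT_TAM_8 at 28.4, 12.2, 15.9 and 11.4 CPM. The KO libraries were below every WT and every KO_TAM library, whereas the KO_TAM and WT_TAM libraries overlapped. In KO against WT the log2 fold change was -1.42 ± 0.27 (SE), with an adjusted p of 0.0118 (edgeR's quasi-likelihood test), and in KO_TAM against WT_TAM it was -0.06 ± 0.25 (SE, adjusted p = 0.889), or 0.22 with library totals alone. It was the 1 gene of the 10 whose KO_TAM and KO libraries did not overlap, against 7.73% of 17904 genes, and the ratio of means was 1.89. The log2 fold change in KO_TAM against KO was 0.90 ± 0.16 (SE), with a p of 1.83e-04 and an adjusted p of 0.125 (edgeR's quasi-likelihood test, 0% of 15062 genes called). Over all alternatives that adjusted p ran from 3.71e-04 in DESeq2 to 0.397, and edgeR's exact test gave 0.00111. The effect of tamoxifen in KO exceeded that in WT by 1.38 ± 0.41 (SE) on the log2 scale, with a p of 0.00426 and an adjusted p of 0.916 (edgeR, 0% of 15556 genes called, 664 of them with an unadjusted p under 0.05, and 12, or 0.0771%, called by DESeq2, none of the 10 among them).

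Gadd45g was set apart by 2 libraries. WT_TAM_5 and WT_TAM_6 held 157 and 154 CPM, WT_TAM_7 and WT_TAM_8 held 54.1 and 50.02, and the 3 WT libraries 35.9 to 75.9. The KO libraries held 24.5 to 56.2 CPM and the KO_TAM libraries 21.9 to 35.8, so that KO overlapped WT and KO_TAM lay below WT_TAM. Gadd45g fell in KO_TAM against WT_TAM, with a log2 fold change of -1.84 ± 0.36 (SE) and an adjusted p of 0.00599 (edgeR's quasi-likelihood test). Without WT_TAM_5 and WT_TAM_6 the log2 fold change was -0.86, with an adjusted p of 0.00805, and leaving out single libraries gave adjusted p-values of 0.00303 to 0.0232, and 6 of the 8 such fits lost the call. In KO against WT it was -0.44 ± 0.33 (SE, edgeR adjusted p = 0.414).

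**Figure D2:**
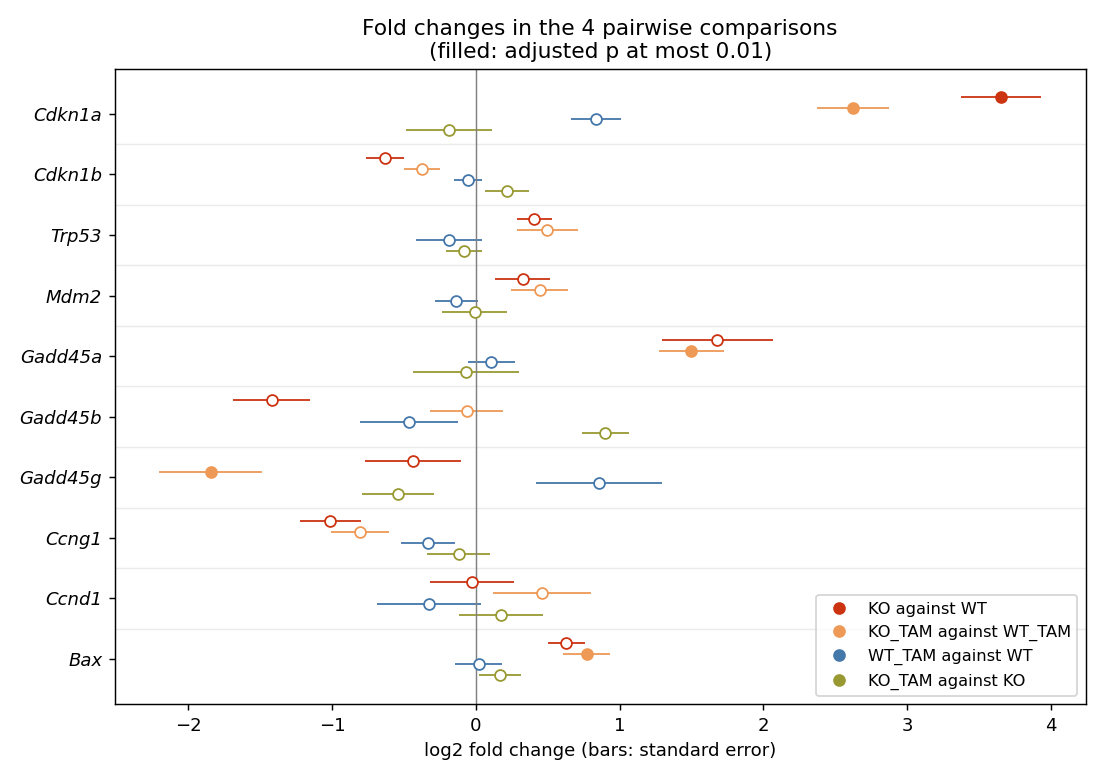
Log2 fold changes of the 10 genes in the 4 pairwise comparisons, with standard errors from edgeR. Filled points passed an adjusted p of 0.01. Cdkn1a was at 3.66 in KO against WT and at 2.63 in KO_TAM against WT_TAM, and no point of KO_TAM against KO or WT_TAM against WT is filled.

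The cell cycle and cell death genes went in different directions. Ccng1, which encodes cyclin G1 and is a classical target of p53, was the most abundant of the 10 in WT. It stood at 911, 1355 and 925 CPM in WT_2 to WT_4, and at 658, 410 and 511 CPM in KO_9 to KO_11. The KO libraries were below the WT libraries, with a log2 fold change of -1.01 ± 0.21 (SE) and an adjusted p of 0.0177 (edgeR's quasi-likelihood test). With tamoxifen the groups, 628 to 1060 and 364 to 671 CPM, overlapped, and the log2 fold change was -0.81 ± 0.20 (SE, edgeR adjusted p = 0.0191). WT_1 and KO_12 held 394 and 229 CPM, and with all 16 libraries the adjusted p in KO against WT was 0.166.

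Bax, which forms pores in the mitochondrial outer membrane during apoptosis, stood at 18.3 to 19.0 CPM in WT and 25.4 to 31.9 in KO. In WT_TAM it stood at 14.3 to 22.2 CPM and in KO_TAM at 27.2 to 37.5. The mutant groups did not overlap their controls. Bax rose in KO_TAM against WT_TAM by 0.77 ± 0.16 (SE) on the log2 scale, with an adjusted p of 0.00841 (edgeR's quasi-likelihood test), and leaving out single libraries moved this p to between 0.00758 and 0.0288, with the call lost in 6 of 8 such fits. In KO against WT the log2 fold change was 0.63 ± 0.13 (SE, edgeR adjusted p = 0.0175), and with all 16 libraries, where WT_1 held 37.0 CPM, it was 0.46 (adjusted p = 0.383).

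Ccnd1, cyclin D1, which drives the entry into S phase with Cdk4 and Cdk6, overlapped in every comparison. It stood at 29.95 to 35.1 CPM in WT, 16.9 to 45.3 in KO and 24.4 to 43.3 in KO_TAM. In WT_TAM the 4 libraries were split as for Gadd45g but the other way round, with 14.99 and 12.5 CPM in WT_TAM_5 and WT_TAM_6 and 37.6 and 36.8 CPM in WT_TAM_7 and WT_TAM_8. The log2 fold change was -0.03 ± 0.29 (SE, adjusted p = 0.965, edgeR) in KO against WT and 0.46 ± 0.34 (SE, adjusted p = 0.383) in KO_TAM against WT_TAM. The first of these turned positive under scaling by library totals alone (0.29) and with all 16 libraries, and the second turned negative without WT_TAM_5 and WT_TAM_6 (-0.09).

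In KO_TAM against KO the 9 genes other than Gadd45b overlapped, with log2 fold changes from -0.54 (Gadd45g) to 0.22 (Cdkn1b). For Cdkn1a that value was -0.18 ± 0.30 (SE, adjusted p = 0.936, edgeR), and for Gadd45a -0.07 ± 0.37 (SE, adjusted p = 0.987). These 2 standard errors are wide, and without KO_11 the values turned to 0.20 and 0.61. At an unadjusted p under 0.05, edgeR's quasi-likelihood test found 1137 genes there, and DESeq2 called 72 genes at an adjusted p of 0.01.

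Per length, the order of the genes changed with genotype. In RPKM, the deposited level per transcript length, Ccng1 led in WT at 276 ± 43.7 (SD, n = 3), with Gadd45g at 44.5 ± 16.2 next and Cdkn1a sixth at 13.2 ± 2.32. In KO Cdkn1a led at 205 ± 76.4 (SD, n = 3), ahead of Ccng1 at 171 ± 39.1, but the libraries of the 2 overlapped, as did those of Ccng1 and Gadd45a at 108 ± 67.1. In KO_TAM the first 3 were the same, Cdkn1a at 178 ± 74.1 RPKM (SD, n = 4), Ccng1 at 152 ± 36.9 and Gadd45a at 102 ± 39.6, again with overlap between neighbours. Trp53 had the lowest mean in all 4 groups, at 4.08 to 7.64 RPKM, and only in WT was it clear of its neighbour's libraries.

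**Figure D3:**
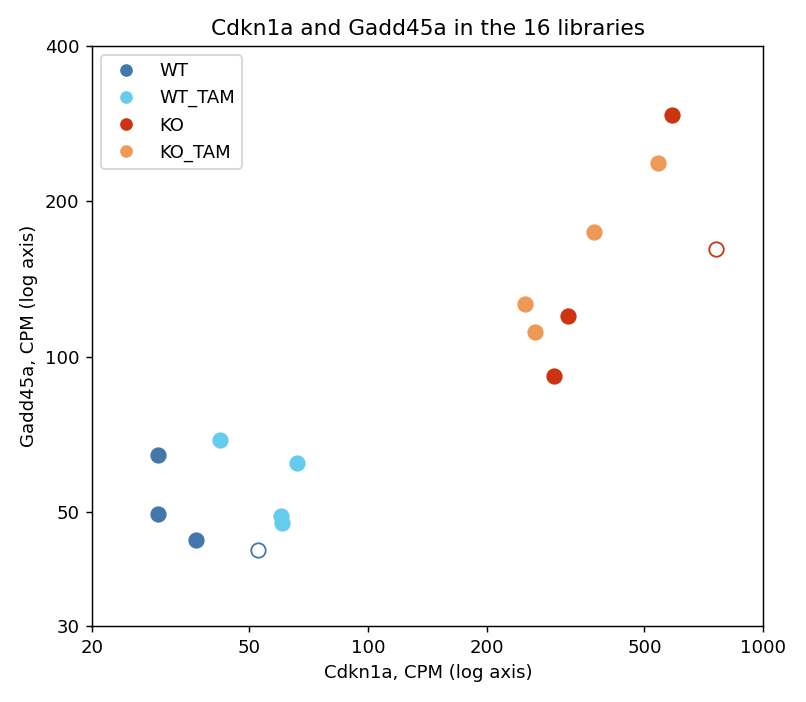
Cdkn1a against Gadd45a in CPM, both on log axes, 1 point per library, with WT_1 and KO_12 as open circles. The wild-type libraries lie between 29.3 and 65.9 CPM of Cdkn1a, and KO_11 and KO_TAM_14 lie at the upper right.

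The 2 highest libraries of the main set were the same for Cdkn1a and Gadd45a, KO_11 and KO_TAM_14. KO_12, outside the main set, went the other way, with the highest Cdkn1a of all libraries, 758 CPM, and 162 CPM of Gadd45a, below KO_11, KO_TAM_14 and KO_TAM_15. Over the 7 KO and KO_TAM libraries of the main set Pearson's r of the log2 CPM of both genes was 0.92 and Spearman's rho 0.75. Without KO_11 and KO_TAM_14 the r of the other 5 was 0.57, so the value rests on these 2 libraries. Over the 7 WT and WT_TAM libraries r was -0.06 and rho -0.18. The pair was chosen after its values were seen, so these are descriptions with no test.

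Over all 14 libraries, which fall into the 2 genotypes, the 5 genes whose log2 CPM followed Cdkn1a most closely among 12840 were Tmbim1 (r = 0.99), Myl4, Chrna1, Osbpl3 and Tmem176b (r = 0.97 each). Myl4 is a myosin light chain of embryonic muscle and atrium, and Chrna1 is a subunit of the acetylcholine receptor that muscle makes along the whole fiber when it loses its nerve. The 5 closest to Gadd45a were Ddb1 (r = 0.96), Mettl21a, Eps8l2, Eef1a1 and Zfp346 (r = 0.95 each). Both lists depended on the measure. By Spearman's rho 2 of the 5 remained for Cdkn1a, Chrna1 not among them, and 1 of the 5 for Gadd45a. With 16 libraries 4 and 3 remained. Cdkn1a and Gadd45a had an r of 0.91 with each other, and Bax had 0.90 with Cdkn1a. These values describe the libraries, which share a genotype difference, and carry no test.

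The other genes known as targets of p53 moved in both directions. Of 23 genes of arrest and repair, 1 was called higher and 2 lower in KO against WT, beside 3.60% of all genes called. Sfn, which encodes the 14-3-3 sigma protein, rose by 2.63 ± 0.28 (SE) on the log2 scale with an adjusted p of 0.00121 (edgeR's quasi-likelihood test), from 1.54 to 2.85 CPM in WT to 10.4 to 15.3 in KO. Polk, a DNA polymerase that copies past lesions, fell by 1.76 (SE 0.25, adjusted p = 0.00397), and Tigar, a phosphatase that slows glycolysis, fell by 0.98 (SE 0.12, adjusted p = 0.0023). In KO_TAM against WT_TAM 7 of the 21 tested were called, 4 higher and 3 lower, beside 6.72% of all genes. The 4 were Sfn (log2 fold change 2.69), Cd82 (1.32), a membrane protein of the tetraspanin family, Phlda3 (0.98), an inhibitor of Akt, and Plk2 (0.79), a polo-like kinase. The 3 lower genes were Tigar (-0.76), Sesn1 (-0.71), a sestrin of the stress response, and Steap3 (-0.54), a metalloreductase. Mean Sesn1 was 30.9 CPM in WT, 50.5 in WT_TAM, 28.5 in KO and 31.3 in KO_TAM, so KO_TAM was below WT_TAM but near WT. The calls of Tigar, Sesn1 and Steap3 were lost in 8, 3 and 11 of 18 alternatives. The median log2 fold change of the list was 0.05 and -0.07 in the 2 comparisons, beside 0.02 and -0.01 over all genes.

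Of 10 targets that promote cell death, 1 was called in KO against WT and 2 in KO_TAM against WT_TAM, all higher. Over all genes 3.60% and 6.72% were called. Eda2r, a receptor of the tumor necrosis factor family for ectodysplasin, stood at 4.61 to 11.7 CPM in WT and 60.4 to 126 in KO, and its mean was 12.8 ± 2.57 (SD, n = 4) in WT_TAM and 99.1 ± 40.2 (SD, n = 4) in KO_TAM. It rose by 3.46 ± 0.36 (SE, adjusted p = 0.00107, edgeR) and by 2.93 ± 0.28 (SE, adjusted p = 1.64e-04). Perp, a membrane protein of desmosomes, rose in KO_TAM against WT_TAM by 2.11 ± 0.26 (SE, adjusted p = 7.05e-04). The median of the list was 0.57 and 0.67, and 8 of 10 values were positive in each comparison.

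**Figure D4:**
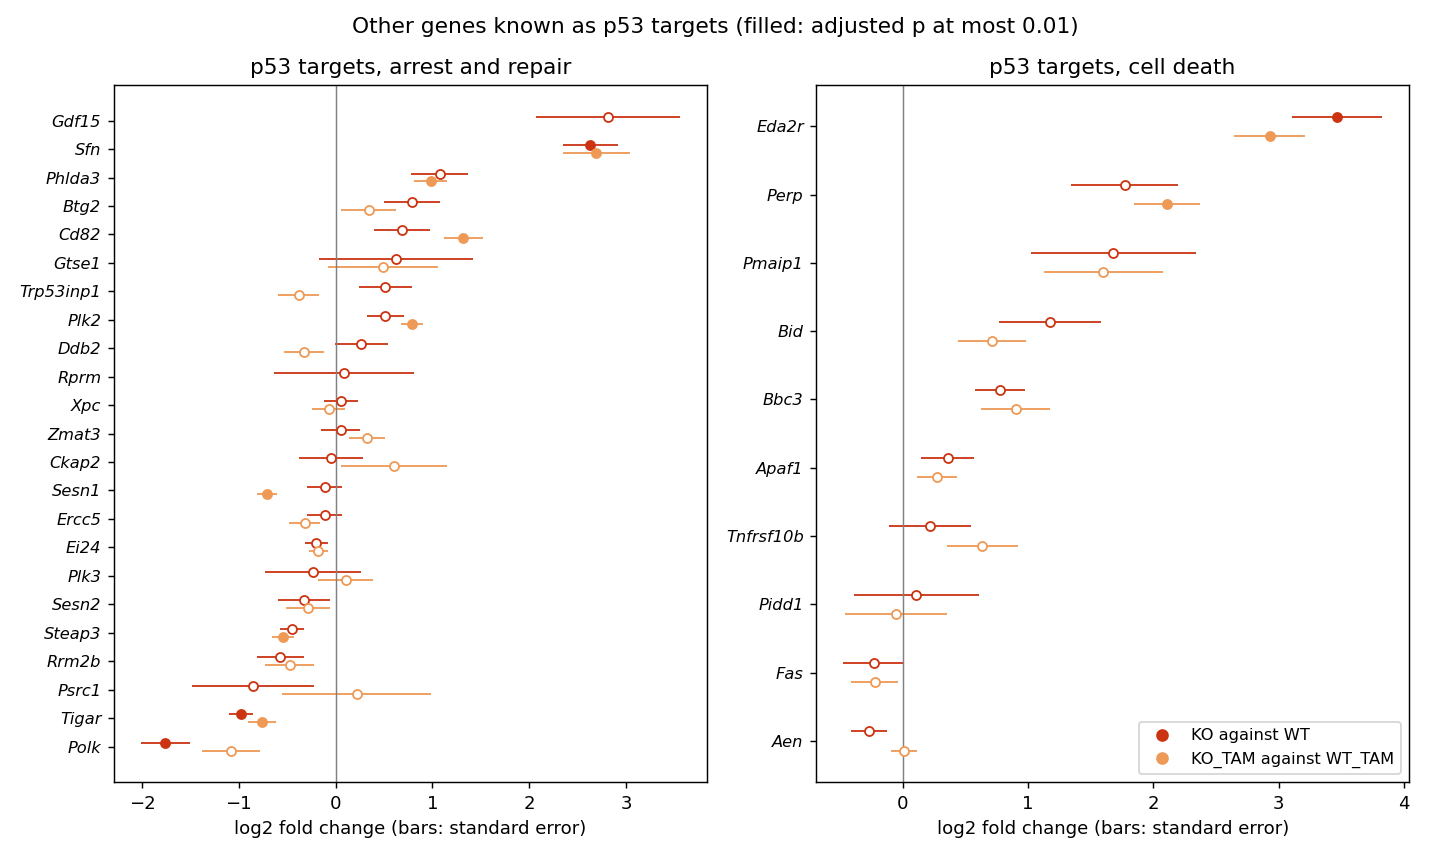
Log2 fold changes (with standard errors) of 23 arrest and repair genes and 10 cell death genes known as targets of p53, in KO against WT and in KO_TAM against WT_TAM. Filled points passed an adjusted p of 0.01. Eda2r and Sfn lie far to the right and Polk and Tigar to the left, and 12 of 23 and 8 of 10 values of KO against WT are positive.

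None of 14 regulators of p53, such as Mdm4 and the kinases Atm and Atr, was called in either genotype comparison, with 13 tested and medians of 0.01 and -0.12. Of 8 further Bcl2 family genes none was called, with medians of 0.23 and 0.12. Among 14 cyclins, kinases and inhibitors Rb1, the retinoblastoma protein that p21 helps to keep active, rose in KO against WT (log2 fold change 1.14 ± 0.21, SE, adjusted p = 0.00999, edgeR), and 0 were called in KO_TAM against WT_TAM. That call was lost in 10 of 17 alternatives. Of 11 partners and stress factors, Egr1, an immediate early transcription factor, rose in both comparisons, by 1.82 ± 0.25 (SE) and 2.39 ± 0.31 (SE) on the log2 scale, with adjusted p-values of 0.00335 and 7.43e-04 (edgeR). Myc rose in KO_TAM against WT_TAM by 1.26 ± 0.20 (SE, adjusted p = 0.00232). None of 14 proliferation genes, such as Mki67 and Top2a, was called, and their summed level was 51.5 to 108 CPM in the wild-type groups and 58.7 to 130 in the mutant groups.

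Genes of denervated and regenerating muscle moved beside Cdkn1a and Gadd45a. Of 8 such genes 7 were called in each genotype comparison, all higher, beside 3.60% and 6.72% of all genes. The summed level of the 8 was 84.1 to 126 CPM in WT and WT_TAM and 308 to 469 in KO and KO_TAM. The embryonic myosin Myh3 rose by 3.89 ± 0.44 (SE) and 3.35 ± 0.45 (SE) on the log2 scale, and the transcription factor Runx1 by 2.75 ± 0.22 (SE) and 3.09 ± 0.23 (SE), with adjusted p-values of 0.00134, 8.65e-04, 3.22e-04 and 3.59e-05 (edgeR). The fetal receptor subunit Chrng rose by 3.65 in KO against WT, between Myh3 and Runx1, and the perinatal myosin Myh8 by 2.60. Chrng was near the floor in WT, at 0.512 to 0.858 CPM beside 5.42 to 13.2 in KO. Its value was 1.44 in the lowest alternative, and the call was kept in all 17. In KO_TAM against WT_TAM the Chrng call was lost in 8 of 18 alternatives. In KO_TAM against WT_TAM Myh8 rose by 1.83 and Chrna1 by 1.76. The metallothioneins Mt1 and Mt2, which bind metals and respond to glucocorticoids, rose in KO against WT by 3.29 ± 0.31 (SE) and 4.81 ± 0.44 (SE), with adjusted p-values of 6.02e-04 and 5.83e-04. In KO_TAM against WT_TAM 1 of 10 fasting and glucocorticoid genes was called, Sgk1, which fell by 0.94 (SE 0.16, adjusted p = 0.00333), and 1 of 13 clock genes, Per1, which fell by 0.72 (SE 0.15, adjusted p = 0.00706). Mean Per1 was 45.7 CPM in WT, 98.4 in WT_TAM, 63.9 in KO and 60.3 in KO_TAM. The mutant means were thus below WT_TAM and not below WT. The Per1 call was lost in 13 of 18 alternatives, with adjusted p-values up to 0.0735 (edgeR, DESeq2 or limma), and the Sgk1 call in 6 of 18. The part of any of these lists in the levels of Cdkn1a and Gadd45a was not tested.

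Markers of cells other than fibers gave no call at 0.01. Of 19 such markers 18 were tested. At 0.05, 3 passed in each genotype comparison, beside 12.8% and 17.0% of all genes. Their summed level was 3030 to 5470 CPM in the wild-type groups and 3810 to 5160 in the mutant groups. Most of that sum came from Col1a1, Col3a1 and Dcn, at 1480 to 2190, 1980 to 2330 and 553 to 638 CPM in WT. It therefore carries little of the other cell types. Cd3e of T cells was at 0 in 3 of the 14 libraries. Cd68 of macrophages stood at 4.38 to 7.87 CPM in WT and 10.4 to 21.4 in KO. With tamoxifen it stood at 2.96 to 7.15 CPM in WT_TAM and 7.59 to 32.7 in KO_TAM. Ptprc of immune cells stood at 2.74 to 4.2 CPM in WT and 4.63 to 7.8 in KO, and at 1.94 to 4.91 in WT_TAM and 4.98 to 7.71 in KO_TAM. Neither gene overlapped within either pair, where 33.0% and 19.6% of genes with at least 15 counts did not overlap. Pax7 of satellite cells stood at 3.40 to 6.41 CPM in the wild types and 1.27 to 3.57 in the mutants. Other markers of these cells were mixed. Csf1r of macrophages stood at 23.5 to 32.3 CPM in WT and 33.2 to 42.6 in KO. Adgre1 of macrophages overlapped, at 6.92 to 7.98 and 7.86 to 8.35, as did Myf5 of satellite cells, at 0.495 to 2.56 and 0.816 to 1.82. With tamoxifen the ranges of Csf1r, Adgre1 and Myf5 all overlapped. Of 10 fiber markers, Des, the intermediate filament protein desmin, rose in both comparisons, by 0.98 ± 0.17 (SE) and 0.90 ± 0.16 (SE), and Myh4, the fast 2B myosin, and Ckm, muscle creatine kinase, fell in KO_TAM against WT_TAM by 1.24 (SE 0.16) and 0.87 (SE 0.18). The adjusted p-values were 0.00832, 0.00416, 8.33e-04 and 0.00812 (edgeR). The summed level of the fiber markers was 145000 to 196000 CPM in WT and WT_TAM and 87400 to 127000 in KO and KO_TAM.

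In the GRCm38 annotation (GENCODE vM21) some of the 10 genes overlap another gene or share sequence with one. Cdkn1a lies on chromosome 17 from 29090976 to 29100727, plus strand, with 5 transcripts, has an unclassified transcript on the other strand, and had 2.14% of the 50-base windows of its transcripts in another gene too. Mdm2 had 1.21%. Gadd45a lies on chromosome 6 from 67035096 to 67037457, minus strand, and the noncoding gene E230016M11Rik overlaps it on the other strand, at 0.793 to 5.66 CPM beside 44.0 to 294 CPM of Gadd45a. Bax lies on chromosome 7 from 45461697 to 45466898, minus strand, and had 8.51% of such windows in other genes, most with the overlapping Gm45808. Trp53 on chromosome 11, from 69580359 to 69591873, shares 3.88%, most with its pseudogene. Ccnd1, chromosome 7 from 144929931 to 144939925, overlaps a protein-coding gene on the other strand whose level was 12.2 to 16.7 CPM. The strand setting of the counts is not given in the sources used here, so reads of such pairs may be mixed. Gadd45b, Gadd45g, Ccng1 and Cdkn1b shared no such window.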

How the data were processed

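RNA of quadriceps from 16 mice was sequenced by the authors. The deposited counts are whole reads per gene that the authors made by alignment to GRCm38 with STAR and counting with HTSeq (strand setting not given in the sources used here), and the submitters' processing notes name bcl2fastq 2.17, STAR 2.5.0c and Cufflinks 2.2.1. The deposited RPKM values are counts per gene length and library total, and followed the counts within a relative deviation of 0.00263 over 8679 genes. Counts were tested with edgeR 4.0.16 (R 4.3.3), by its quasi-likelihood test with TMM scaling. filterByExpr kept genes past its minimum count of 10 and minimum total of 15, and p-values were adjusted by Benjamini-Hochberg over every gene kept, with calls at 0.01. The fits used 14 libraries, as the study did, with each comparison fitted on its own groups. No 2 of the 120 library pairs were identical. DESeq2 1.42.0, limma 3.58.1 on log2(RPKM + 1) and log2(RPKM + 0.1), other scalings, filters and library sets were alternatives. Genes named were the 10 members, called genes of the 12 lists (154 further genes; at most 4 a list by size of change, with Tigar, Sesn1 and Steap3 added after their values were seen) and the 5 closest to Cdkn1a and Gadd45a. The members and lists were chosen with earlier results of these data known. The script was tested on simulated data.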

Additional observations from a re-analysis of the deposited data

Results flagged for a closer look

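In the library labelled WT_1, which is not in the main set, Cdkn1b stood at 29.41 CPM, where the other 3 WT libraries held 52.27 to 53.94, and its gap to them was 0.932 of the group's range, above the critical value of Dixon's test for 4 libraries. Bax stood at 36.98 CPM in the same library, with the other 3 at 18.31 to 19.03 and a gap of 0.961 of the range. These were 2 of 40 groups of 4 libraries examined, and chance marks about 1 in 20.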

How the results depend on the processing

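The 1 gene called in KO against WT became 4 with library totals alone, 5 with no filter on low counts, 5 with DESeq2, 3 with limma at either pseudocount, 6 with the exact test, 5 in 1 fit of the 4 groups and 6 at a threshold of 0.05, and stayed 1 when single libraries were left out (1 to 1). Calls over all genes rose too, from 3.60% of 14740 to 11.4% with DESeq2, 9.85% with the exact test and 12.8% at 0.05. With library totals alone 1023 of 14740 genes were called higher and 140 lower, and with no filter 573 and 523 of 22672. With limma 661 and 95 were called at a pseudocount of 1, and 718 and 106 at 0.1. The 1 fit of the 4 groups called 424 and 563 of 15556. The 4 called in KO_TAM against WT_TAM ranged from 2 to 4 when single libraries were left out, with 2 without WT_TAM_6, KO_TAM_13, KO_TAM_14 or KO_TAM_15. Over all genes these fits called 424 to 921. Leaving out WT_TAM_5 and WT_TAM_6 together, chosen after seeing the data, left 3, with Bax lost. In KO_TAM against KO and in WT_TAM against WT, DESeq2 and the exact test each called 1. No call changed direction in 1555 alternatives over 85 pairs of gene and comparison, of which 58 pairs kept their side of the threshold throughout. Over all genes, KO against WT called 182 to 1885 (531 in the report), KO_TAM against WT_TAM 424 to 2476 (979), KO_TAM against KO 0 to 72, WT_TAM against WT 2 to 214 (19) and the interaction 0 to 12. With library totals alone, 88.0% of the calls in KO against WT were higher, beside 53.1% in the report, and 88.4% beside 50.9% in KO_TAM against WT_TAM. No paired analysis was possible because the labels do not say which libraries share a litter, although the paper describes the samples as littermates. The exact test and the 1 fit of 4 groups were not run for the interaction. Groups of 3 and 4 libraries limit what the tests could call.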
